A study of Monodelphis domestica with 6 samples.

Results

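The genes described here encode the proteins that join neighbouring cells in the gray short-tailed opossum, Monodelphis domestica: cadherins, claudins and their tight junction partners, the epithelial adhesion molecule EPCAM, desmosomal proteins and connexins. They were chosen by gene symbol alone, and 73 of the 35665 genes in the files carry such a symbol. By role, they comprise 20 cadherins (5 type I, 11 type II and 4 other), 22 claudins, 4 tight junction partners, EPCAM, 6 desmosomal cadherins, 4 desmosomal plaque genes, PKP4 of the p120 family and 15 connexins. CRB3, DSC3 and PKP3 did not occur as symbols.

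Cadherins are calcium-dependent adhesion proteins whose tails bind catenins and, through them, actin at adherens junctions. Tight junctions seal the space between epithelial cells with claudins and occludin, which the zonula occludens proteins hold at the membrane. Desmosomes tie desmosomal cadherins through plakoglobin, plakophilins and desmoplakin to keratin filaments, and connexins form gap junction channels through which small molecules pass between cells. In eutherian mammals, cultured dermal fibroblasts are known for CDH2 and CDH11 adhesion with connexin 43 channels, and pluripotent stem cells for compact colonies held by CDH1 and EPCAM.

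The study asked how reprogramming changes the opossum transcriptome, and sequenced neonatal skin fibroblasts (neoSFs) and the induced pluripotent stem cells (monoiPSCs) made from them. The neoSFs were primary wild-type cultures from 10-day-old female pups of the fully inbred strains FD2M1 and LSD1, expanded for 3 to 4 passages in serum medium, with 1 library per strain. The monoiPSCs arose from these cultures after nucleofection of episomal plasmids that encode human OCT4, SOX2, NANOG, KLF4, LIN28 and cMYC, and the plasmid set of the study also held pCE-mp53DD and an EBNA1 plasmid. They grew without feeder cells on Matrigel in medium with human LIF, bFGF and the ROCK inhibitor Y27632, which the neoSFs did not receive. Each strain gave 1 line, sequenced at passage 15 and passage 25, so the 4 monoiPSC libraries come from 2 lines, the passages of a line are not independent cultures, and p-values measure only the spread between these libraries. The neoSFs were read in-house with 50 bp single-end reads and the monoiPSCs at a service with 150 bp paired-end reads, so cell type, medium and sequencing platform cannot be told apart.

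Total counts were 14278794 and 16982978 in the neoSFs and 28684754 to 35564261 in the monoiPSCs. Levels are normalized read counts (NRC), the count times 1 factor per library. A group whose libraries all held 3 counts or fewer was at the floor for that gene, and 3 counts correspond to an NRC of 5.85 and 4.75 in the neoSFs and 1.55 to 1.88 in the monoiPSCs. NRC is not corrected for gene length, so levels are compared between libraries and not between genes. Defining markers followed the labels. The fibroblast collagen gene COL1A1 fell from an NRC of 938200 or more to 2572 or less, and the pluripotency factor SOX2 rose from 3.90 or less to 2649 or more. In these bulk libraries, fewer cells of a type and less RNA per cell cannot be told apart.

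Junction genes were higher in monoiPSCs more often than lower. A gene was tested when its NRC reached 20 in both neoSFs or in all 4 monoiPSCs, and was called differentially expressed (DE) in edgeR's quasi-likelihood test when it changed by 2-fold or more with a Benjamini-Hochberg adjusted p up to 0.05. Of the 73 junction genes, 39 were tested, 20 rose, 6 fell and 13 were not called, against 24.3% of all 13072 tested genes that rose and 21.6% that fell. Because 15 of the 39 passed the filter only through the monoiPSCs and 5 only through the neoSFs, the direction of those 20 was partly fixed by the filter. The 15 were CDH1, CDH4, CDH7, CDH10, CDH19, CDH20, CDH24, CLDN9, CLDN10, CLDN11, DSC1, DSG2, EPCAM, OCLN and TJP3, and all but CLDN11 rose. The 5 were CDH8, CDH13, CLDN23, DSG3 and GJA3. Among the 19 that passed in both groups, 6 rose (31.6%) and 3 fell (15.8%), where 18.8% and 19.7% of the 10979 such genes rose and fell. The 6 were CDH3, CDH15, CLDN6, PKP2, PKP4 and GJA5, and the 3 were CDH11, DSP and GJA1. All 4 monoiPSC libraries exceeded both neoSFs for 21 tested junction genes and lay below both for 10, where 36.1% and 37.1% of all tested genes did so. For a single gene an exact two-sided permutation test of 4 libraries against 2 cannot give a p below 0.0667. All 26 called junction genes were among those without overlap. Their shared sign against neoSFs of the same strain, at both passages of both lines, follows from that and is no separate result.

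**Figure D1:**
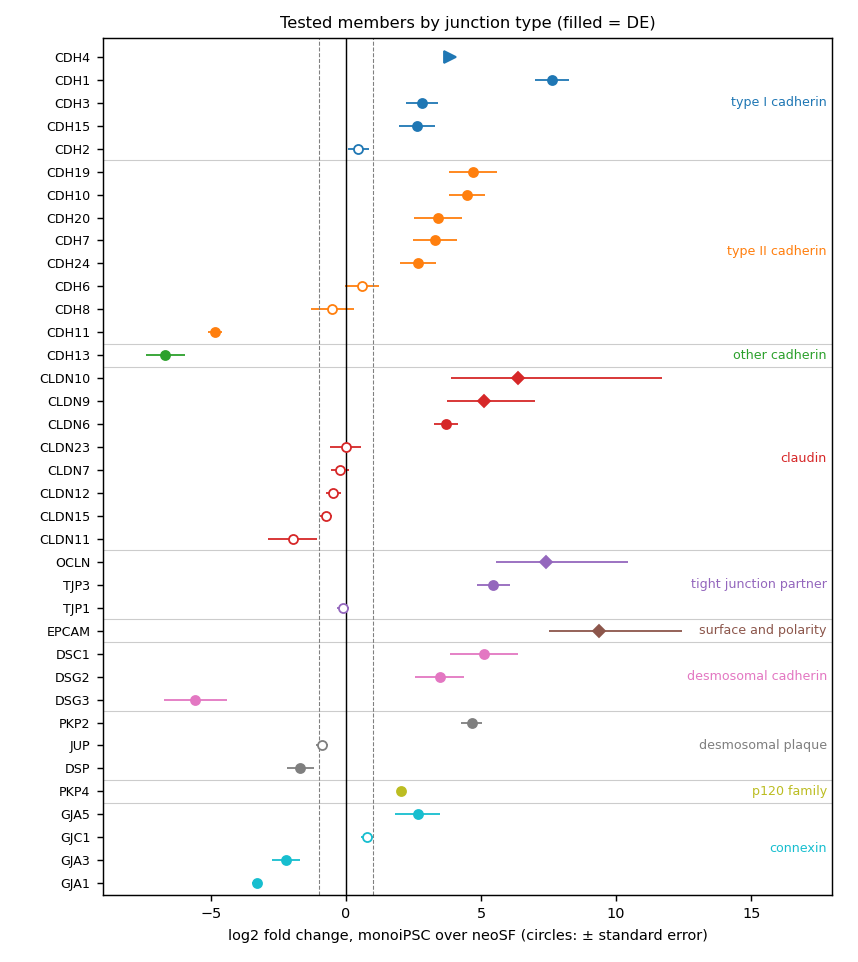
The x axis gives the log2 fold change of 37 tested junction genes, monoiPSC over neoSF, by junction type, with filled symbols for DE genes and dashed lines at a 2-fold change. Circles are edgeR values ± standard error, diamonds are ratios of genes with few neoSF counts with their 95% counting interval, and the triangle of CDH4 is a lower limit; type I cadherins lie right of 0, while CDH11, CDH13, DSG3, DSP, GJA1 and GJA3 are filled to the left.

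Of the other 34 junction genes, 14 were at the floor in both groups and 7 of these had no count in any library. They include 8 claudins, the kidney cadherin CDH16, the vascular cadherin CDH5 and the connexin GJB5. The remaining 20 had counts but were too low to test. Without the filter, CDH22, CLDN5, CLDN19, DSC2 and GJB2 of these were called higher and CDH17 and CLDN1 lower.

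Among the type I classical cadherins, 4 of 5 rose (CDH1, CDH3, CDH4 and CDH15) and CDH2 was not called. The shares to set beside this and the counts of the other junction types are 24.3% of all tested genes higher and 21.6% lower. CDH1 and CDH4 passed the filter only through the monoiPSCs, which partly fixed their direction. CDH1 (gene 100027800, chromosome 1 of MonDom5), E-cadherin, the cadherin of epithelia and pluripotent colonies, had an NRC of 1.95 in FD2M1 and 19.3 in LSD1 neoSFs. In monoiPSCs it was 1476 and 1901 in the FD2M1 line at passages 15 and 25, and 2889 and 2151 in the LSD1 line. All 4 monoiPSC libraries were far above both neoSF libraries, and the log2 fold change was 7.64 (standard error, SE, 0.63, adjusted p = 7.64e-05, edgeR quasi-likelihood with Benjamini-Hochberg adjustment, as for all adjusted p below), or 200-fold. The FD2M1 neoSF value rests on 1 count and the LSD1 value on 12.2 counts, so the log2 fold change was 6.87 without the FD2M1 neoSFs and 10.11 without the LSD1 neoSFs.

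CDH3 (gene 100027786, chromosome 1), P-cadherin, known from basal epidermis and placenta, was already measurable in neoSFs at an NRC of 300.3 for FD2M1 and 983 for LSD1. It was 2246 and 3969 in the FD2M1 line at passages 15 and 25 and 6037 and 4733 in the LSD1 line. The groups did not overlap, and within each group the LSD1 libraries were the higher ones. It rose by a log2 fold change of 2.81 (SE 0.59, adjusted p = 0.00455), 2.20 without the FD2M1 neoSFs and 3.92 without the LSD1 neoSFs.

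CDH2 (gene 100010120, chromosome 3), N-cadherin, the cadherin of mesenchymal and neural cells, was well expressed in both groups. Its NRC was 1369 in the FD2M1 and 4103 in the LSD1 neoSFs, against 3772 and 3753 in the FD2M1 line and 3527 and 2950 in the LSD1 line at passages 15 and 25. The 4 monoiPSC libraries lay between the neoSF libraries, so the groups overlapped, and the log2 fold change was 0.45 (SE 0.39, adjusted p = 0.346). Without the LSD1 neoSFs it was 1.46 with an adjusted p of 0.00289, and without the FD2M1 neoSFs it was -0.14, so each neoSF library decided its direction.

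CDH15 (gene 100026838, chromosome 1), M-cadherin, a cadherin of muscle precursors, had an NRC of 204 in the FD2M1 and 39.5 in the LSD1 neoSFs. It was 643 and 386 in the FD2M1 line at passages 15 and 25 and 751 and 979.9 in the LSD1 line, above both neoSF libraries throughout. CDH15 rose by a log2 fold change of 2.63 (SE 0.67, adjusted p = 0.0109), 4.21 without the FD2M1 neoSFs and 1.87 without the LSD1 neoSFs, and with passage 25 libraries alone the adjusted p was 0.0594. Of 4 tested skeletal muscle markers MYOG rose, while MYOD1, DES and MYMK were not called and overlapped between the groups (log2 fold changes 2.09, 1.42 and -0.12). Their summed NRC over 5 genes was 369 to 1689 in neoSFs and 1395 to 10860 in monoiPSCs, with the FD2M1 neoSFs above the LSD1 neoSFs as for CDH15, and the defining marker MYOD1 was at 14.2 to 92.0 and 35.1 to 591. The part of muscle-type cells in the CDH15 values was not tested. CDH4, R-cadherin of the developing retina and brain, had counts that round to 0 in both neoSF libraries and an NRC of 62.9 to 97.8 in the monoiPSCs, which is at least 14.5-fold higher (against 3 counts per neoSF library, adjusted p = 0.000249).

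Of the 11 type II cadherins, which mark subsets of mesenchymal, neural and vascular cells, 8 were tested, 5 rose (CDH7, CDH10, CDH19, CDH20 and CDH24), CDH11 fell and CDH6 and CDH8 were not called. All 5 that rose passed the filter only through the monoiPSCs, which partly fixed their direction. CDH6 and CDH11, the 2 that passed in both groups, did not rise. CDH11 (gene 100014376, chromosome 1), OB-cadherin, a cadherin of mesenchyme and bone, had an NRC of 62630 in the FD2M1 and 82770 in the LSD1 neoSFs. The FD2M1 line had 2524 and 2138 at passages 15 and 25 and the LSD1 line 3076 and 1787. It fell 28.6-fold, with a log2 fold change of -4.84 (SE 0.26, adjusted p = 1.69e-05), and the groups lay far apart. Its lowest monoiPSC level, 1787, was still well above the floor.

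CDH10 (gene 100015273, chromosome 3), known from brain, was 11.4 and 48.3 in the FD2M1 and LSD1 neoSFs. The FD2M1 line had 598 and 350.5 at passages 15 and 25 and the LSD1 line 628 and 968, all above both neoSF libraries. CDH10 rose by 4.48 on the log2 scale (SE 0.66, adjusted p = 0.000907), 3.83 without the FD2M1 neoSFs and 5.86 without the LSD1 neoSFs.

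CDH19 (gene 100019612, chromosome 3), a cadherin of Schwann cell precursors and neural crest derivatives, had no count in FD2M1 and an NRC of 42.4 in LSD1 neoSFs. It was 675 and 441.5 in the FD2M1 line at passages 15 and 25 and 540.2 and 547 in the LSD1 line. The 4 monoiPSC libraries were high and close to each other. This was a log2 fold change of 4.70 (SE 0.89, adjusted p = 0.00291), 3.77 without the FD2M1 neoSFs, and 12.74, against a library at 0, without the LSD1 neoSFs.

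Markers of neural crest, Schwann cells and melanocytes included 3 tested genes, of which 2 rose, DCT among them, both having passed the filter only through the monoiPSCs. Their summed NRC over 5 genes was 242 to 391 in neoSFs and 4802 to 15930 in monoiPSCs, most of it DCT, and the defining marker SOX10 was not found under that symbol. The part of such cells in the CDH19 values was not tested.

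CDH7 (gene 100014686, chromosome 3), another neural crest and neural cadherin, was 69.2 and 17.9 in the FD2M1 and LSD1 neoSFs. It was 771.5 and 335.5 in the FD2M1 line at passages 15 and 25 and 266 and 176 in the LSD1 line. Within both groups the FD2M1 libraries were higher, the reverse of CDH3. Against neoSFs it rose by a log2 fold change of 3.30 (SE 0.82, adjusted p = 0.00995), but the call was lost without the LSD1 neoSFs (2.61, adjusted p = 0.053), and it was 4.56 without the FD2M1 neoSFs and 2.71 without the FD2M1 line at passage 15.

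CDH24 (gene 100030450, chromosome 1) was 42.4 and 17.7 in the FD2M1 and LSD1 neoSFs, 85.4 and 164 in the FD2M1 line at passages 15 and 25, and 147 and 308.5 in the LSD1 line. The groups did not overlap, and in each line passage 25 was above passage 15. The log2 fold change was 2.66 (SE 0.66, adjusted p = 0.00956), 3.42 without the FD2M1 neoSFs, and the call was lost without the LSD1 neoSFs (2.14, adjusted p = 0.0593). CDH20 reached only 38.9 to 59.9 in monoiPSCs, from 8.94 in the FD2M1 and 0 in the LSD1 neoSFs, and rose by a log2 fold change of 3.40 (SE 0.88, adjusted p = 0.0116), which became 2.31 without the LSD1 and 9.17 without the FD2M1 neoSFs. With passage 15 libraries alone its adjusted p was 0.0552.

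CDH6, K-cadherin of kidney and neural crest, was well expressed but overlapped between groups, at 1990 and 1155 in the FD2M1 and LSD1 neoSFs and 643 to 4230 in monoiPSCs (log2 fold change 0.59, SE 0.64, adjusted p = 0.447). CDH8 was low in both groups, at 24.3 to 42.0 in neoSFs and 8.98 to 51.0 in monoiPSCs. CDH5 (gene 100018540, chromosome 1), VE-cadherin, the defining cadherin of endothelium, had no count in neoSFs and an NRC of 1.12 and 1.25 in the FD2M1 line at passages 15 and 25 and 1.05 and 1.03 in the LSD1 line, at the floor in both groups. Of the endothelial markers, PECAM1 was at most 16.3 in any library and 1 of 3 tested rose (TIE1) while 1 fell (VWF) and KDR was not called (log2 fold change -0.37). Their summed NRC was 169 to 283 in neoSFs and 500.5 to 735 in monoiPSCs. Most of the monoiPSC sum was TIE1, at 333 to 583 against at most 1.95 in neoSFs, and TIE1 passed the filter only through the monoiPSCs.

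CDH13 (gene 100031851, chromosome 1), T-cadherin, which is anchored by a lipid and lacks the catenin-binding tail, was 4139 in the FD2M1 and 7303 in the LSD1 neoSFs. It was 38.8 and 33.9 in the FD2M1 line at passages 15 and 25 and 15.8 and 118.5 in the LSD1 line. Both neoSF libraries were far above every monoiPSC library, and CDH13 fell with a log2 fold change of -6.69 (SE 0.71, adjusted p = 0.000215), or -7.53 without the LSD1 line at passage 25. Of the other cadherins, the intestinal cadherin CDH17 was 18.2 and 262 in the FD2M1 and LSD1 neoSFs and at most 3.77 in monoiPSCs, but missed the filter through the FD2M1 neoSFs, and CDH16 and CDH26 were at or near the floor.

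**Figure D2:**
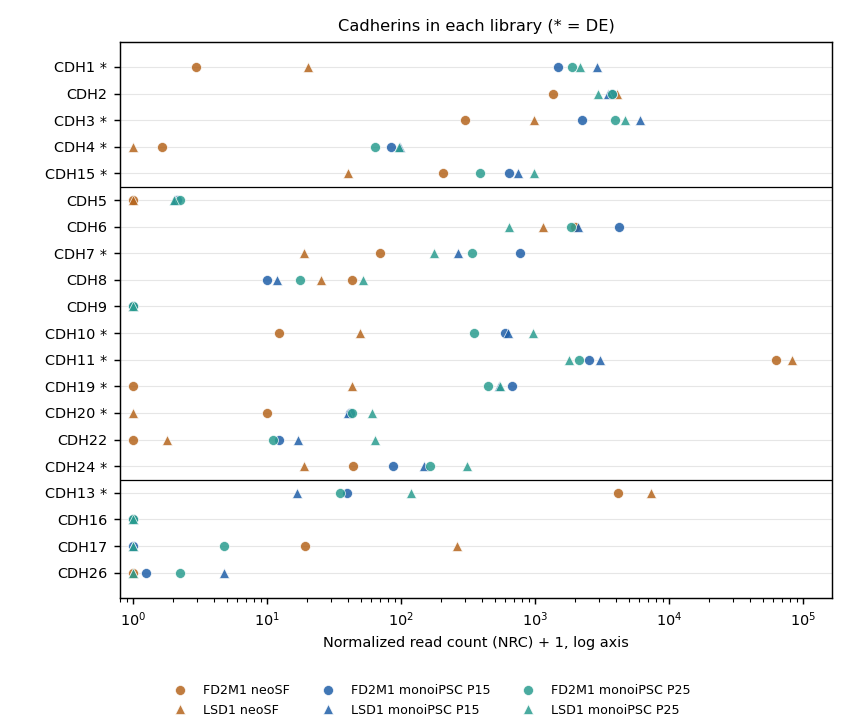
Each point is 1 library, with the NRC + 1 on a log x axis and the 20 cadherins in rows, type I above the first line, type II between the lines and the other cadherins below; circles are FD2M1, triangles LSD1, brown neoSFs, blue monoiPSCs at passage 15 and green at passage 25, and a star marks a DE gene. CDH1 moves from at most 19.3 to at least 1476 while CDH11 and CDH13 move the other way, and the CDH2 points of both groups overlap.

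Of the 22 claudins, the strand-forming proteins that set what passes a tight junction, 8 were tested. CLDN6, CLDN9 and CLDN10 rose and the other 5 were not called. CLDN9 and CLDN10 passed the filter only through the monoiPSCs, which partly fixed their direction. CLDN6 (gene 100014960, chromosome 6), an embryonic claudin known from pluripotent cells, was 517 in the FD2M1 and 163 in the LSD1 neoSFs. The FD2M1 line had 3775 and 4559 at passages 15 and 25 and the LSD1 line 4154 and 3951, so the monoiPSC libraries were nearly level (4110 ± 337, SD, n = 4) and well above both neoSFs. CLDN6 rose by a log2 fold change of 3.70 (SE 0.46, adjusted p = 0.000428), 4.74 without the FD2M1 neoSFs and 3.09 without the LSD1 neoSFs.

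CLDN9 (gene 100014921, chromosome 6), the claudin gene next to CLDN6, was at the floor in neoSFs at 3.14 and 3.17. It was 46.0 and 145 in the FD2M1 line at passages 15 and 25 and 137.5 and 148 in the LSD1 line, so the FD2M1 line at passage 15 stood below the other monoiPSC libraries. The ratio over neoSFs was 34.2, with a 95% counting interval of 13.3 to 126 from 4 neoSF counts (adjusted p = 0.000971). CLDN10 had 1 count in all in neoSFs and an NRC of 26.6 to 125 in monoiPSCs, a ratio of 83.5 with a counting interval of 14.9 to 3300 (adjusted p = 0.00674). Its fitted log2 fold change was 6.34, 9.86 without the FD2M1 neoSFs and 5.28 without the LSD1 neoSFs (adjusted p = 0.0469), and at so few counts it depends on the prior count of the fit. These intervals cover counting error only.

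The 5 tested claudins that were not called were low to moderate. CLDN7 (gene 100015309, chromosome 2), a claudin of simple epithelia that binds EPCAM, was 73.5 and 69.9 in the FD2M1 and LSD1 neoSFs, 54.7 and 73.7 in the FD2M1 line at passages 15 and 25 and 45.9 and 55.6 in the LSD1 line. The groups overlapped, with a log2 fold change of -0.23 (adjusted p = 0.564). CLDN11, the claudin of myelin and testis, was 328 in FD2M1 and 19.8 in LSD1 neoSFs against 26.8 to 74.3 in monoiPSCs, and its log2 fold change of -1.98 (adjusted p = 0.0898) was 1.18 without the FD2M1 neoSFs and -2.91 (adjusted p = 0.00553) without the LSD1 neoSFs, and DESeq2 called it lower (-2.04, adjusted p = 0.0431). CLDN15 was lower in all 4 monoiPSC libraries, at 176 to 231.5 against 352 and 365, but by less than 2-fold (-0.75, adjusted p = 0.0202). CLDN12 and CLDN23 had log2 fold changes of -0.47 and -0.02.

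Claudins that define many epithelia were scarcely counted. CLDN3 was at 1.95 and 1.58 in the FD2M1 and LSD1 neoSFs, 1.68 and 0.628 in the FD2M1 line at passages 15 and 25 and 0.526 and 0.515 in the LSD1 line, at the floor in both groups. CLDN4 was 0 and 4.75 in the FD2M1 and LSD1 neoSFs, 5.05 and 6.28 in the FD2M1 line at passages 15 and 25, and 0 and 2.49 in the LSD1 line. CLDN1 was 8.96 and 1.58 in the FD2M1 and LSD1 neoSFs and had no count in any monoiPSC library. Low reads in every monoiPSC library but near none in neoSFs were seen for CLDN5, at 9.73 to 27.8, and CLDN19, at 16.4 to 22.6, both below the filter.

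EPCAM (gene 100033359, chromosome 1), a surface adhesion protein of epithelia and pluripotent cells, had an NRC of 2.93 and 0.792 in the FD2M1 and LSD1 neoSFs. It was 616 and 1380 in the FD2M1 line at passages 15 and 25 and 1097 and 1542 in the LSD1 line. Every monoiPSC library was high, and in both lines passage 25 was the higher one. The ratio over neoSFs was 664, with a counting interval of 184 to 5480 from 2 neoSF counts (adjusted p = 8.49e-05). Its fitted log2 fold change of 9.38 was 13.83 without the FD2M1 neoSFs and 8.28 without the LSD1 neoSFs.

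Of the 4 tight junction partners, OCLN and TJP3 rose and TJP1 was not called. OCLN and TJP3 passed the filter only through the monoiPSCs, which partly fixed their direction. OCLN (gene 100031291, chromosome 3), occludin, was 1.95 and 1.58 in the FD2M1 and LSD1 neoSFs, 184 and 308 in the FD2M1 line at passages 15 and 25 and 354 and 319.9 in the LSD1 line. Every monoiPSC library was far above both neoSFs, which had 1 count each, a ratio of 168 with a counting interval of 46.3 to 1380 (adjusted p = 5.41e-05). TJP3 (gene 100017651, chromosome 3), the zonula occludens protein found mainly in epithelia, was 6.54 and 3.17 in the FD2M1 and LSD1 neoSFs, 133 and 286.5 in the FD2M1 line at passages 15 and 25 and 141 and 175 in the LSD1 line. The groups did not overlap, with a log2 fold change of 5.45 (SE 0.61, adjusted p = 0.000264). The neoSF values of TJP3 rest on 3.4 counts in FD2M1 and 2 in LSD1, so the size of this rise rests on few counts.

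TJP1 (gene 100021326, chromosome 1), the zonula occludens protein present in most adhering cells, was 2943 and 2563 in the FD2M1 and LSD1 neoSFs, 2788 and 2671 in the FD2M1 line at passages 15 and 25 and 2399 and 1703 in the LSD1 line. It was abundant in all 6 libraries, the groups overlapped, and the log2 fold change was -0.11 (SE 0.22, adjusted p = 0.682).

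**Figure D3:**
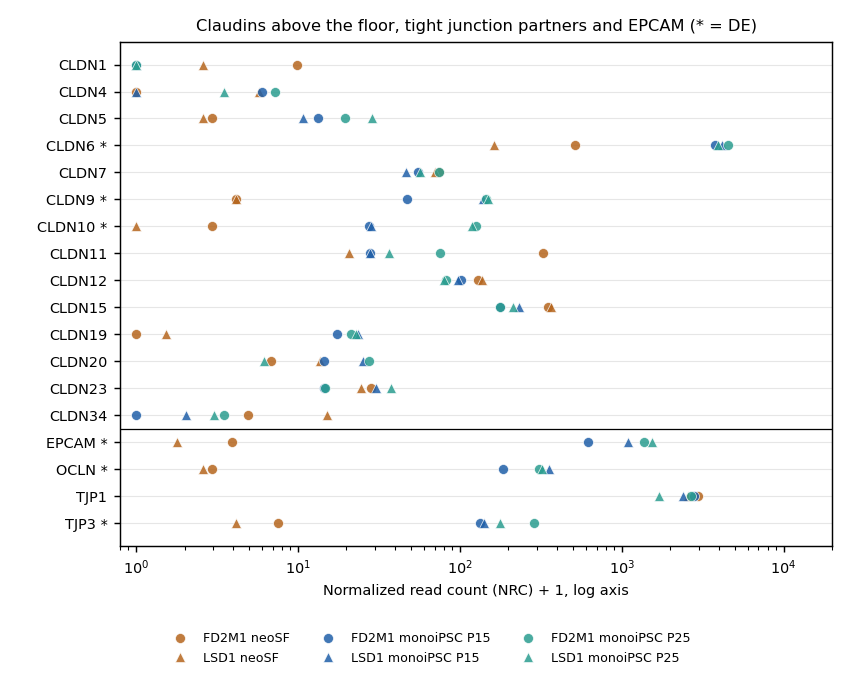
Each point is 1 library, with the NRC + 1 on a log x axis, claudins above the floor in at least 1 group in the upper rows and EPCAM, OCLN, TJP1 and TJP3 in the lower rows; circles are FD2M1, triangles LSD1, brown neoSFs, blue monoiPSCs at passage 15 and green at passage 25, and a star marks a DE gene. EPCAM, OCLN and TJP3 lie near the left edge in neoSFs and at 133 or more in monoiPSCs, while the TJP1 points of both groups overlap.

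Desmosomal genes did not move as 1 block: DSC1, DSG2 and PKP2 rose, DSG3 and DSP fell, and JUP was lower by less than 2-fold. DSC1 and DSG2 passed the filter only through the monoiPSCs and DSG3 only through the neoSFs, which partly fixed their directions. PKP2, DSP and JUP passed in both groups. DSC1 (gene 100031155, chromosome 3), a desmocollin, was 99.1 in the FD2M1 and 1.58 in the LSD1 neoSFs, the LSD1 value resting on 1 count. The FD2M1 line had 387 and 2913 at passages 15 and 25 and the LSD1 line 1732 and 1233. The monoiPSC libraries were all above both neoSFs but spread widely among themselves (1566 ± 1055, SD, n = 4), and the log2 fold change was 5.11 (SE 1.27, adjusted p = 0.00999), 9.96 without the FD2M1 neoSFs and 4.08 without the LSD1 neoSFs.

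DSG2 (gene 100031117, chromosome 3), the desmoglein of simple epithelia and heart, was 25.4 and 4.75 in the FD2M1 and LSD1 neoSFs, 58.8 and 297 in the FD2M1 line at passages 15 and 25 and 117 and 134 in the LSD1 line. The groups did not overlap, and the FD2M1 line had both the lowest and the highest monoiPSC value, as for DSC1. DSG2 rose by a log2 fold change of 3.46 (SE 0.91, adjusted p = 0.0124) and 5.06 without the FD2M1 neoSFs, and the call was lost without the LSD1 neoSFs (2.67, adjusted p = 0.0644).

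DSG3 (gene 100031131, chromosome 3), a desmoglein of stratified epithelia, moved the other way. It was 46.8 and 148 in the FD2M1 and LSD1 neoSFs, 6.74 and 0.628 in the FD2M1 line at passages 15 and 25 and 0 at both passages of the LSD1 line. Both neoSF libraries were above every monoiPSC library, with a log2 fold change of -5.58 (SE 1.16, adjusted p = 0.00439), -6.19 without the FD2M1 neoSFs, -4.52 without the LSD1 neoSFs and -8.36 without the FD2M1 line at passage 15. Of the 8 listed keratinocyte markers, 4 were found and none was tested; TP63 was at most 6.83 in any library, KRT5 was not found under that symbol, and the summed NRC of the 4 was 8.18 to 15.6 in neoSFs and 9.73 to 21.6 in monoiPSCs.

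DSC2 (gene 100031170, chromosome 3) was too low to test, at 1.95 and 1.58 in the FD2M1 and LSD1 neoSFs, 6.17 and 23.3 in the FD2M1 line at passages 15 and 25 and 14.2 and 12.4 in the LSD1 line. All monoiPSC libraries were above both neoSFs, a ratio of 7.84 with a counting interval of 2.12 to 65.7. DSG1 and DSG4, desmogleins of the upper epidermis and hair, were at most 5.85 in any library.

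Of the plaque genes, DSP (gene 100027776, chromosome 3), desmoplakin, the link to keratin, was 182 and 136 in the FD2M1 and LSD1 neoSFs. It was 25.0 and 61.0 in the FD2M1 line at passages 15 and 25 and 26.0 and 71.3 in the LSD1 line, lower than both neoSFs in every library and higher at passage 25 in both lines. DSP fell with a log2 fold change of -1.70 (SE 0.50, adjusted p = 0.02), and the call was lost without the FD2M1 neoSFs (-1.49, adjusted p = 0.0921) and with passage 25 libraries alone (-1.17, adjusted p = 0.054).

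JUP (gene 100012969, chromosome 2), plakoglobin, which serves both desmosomes and adherens junctions, was 4034 and 5068 in the FD2M1 and LSD1 neoSFs, 1823 and 1947 in the FD2M1 line at passages 15 and 25 and 2552 and 2926 in the LSD1 line. The groups did not overlap, but the log2 fold change of -0.88 (SE 0.22, adjusted p = 0.0104) was short of 2-fold. It passed 2-fold without the FD2M1 neoSFs (-1.04) and without the LSD1 line at passage 25 (-1.03).

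PKP2 (gene 100012832, chromosome 8), the plakophilin of simple epithelia and heart, was 27.8 and 27.7 in the FD2M1 and LSD1 neoSFs, 799 and 858 in the FD2M1 line at passages 15 and 25 and 527 and 472 in the LSD1 line. It rose 25.3-fold, with the FD2M1 line above the LSD1 line (log2 fold change 4.66, SE 0.39, adjusted p = 8.24e-05). PKP1, the plakophilin of stratified epithelia, was 2.77 and 0 in the FD2M1 and LSD1 neoSFs, 0 and 5.02 in the FD2M1 line at passages 15 and 25 and 0 and 2.58 in the LSD1 line, too low to test.

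PKP4 (gene 100015189, chromosome 4), a p120-family catenin found at adherens junctions as well as desmosomes, was 749 and 924 in the FD2M1 and LSD1 neoSFs, 3271 and 3489 in the FD2M1 line at passages 15 and 25 and 3042 and 3164 in the LSD1 line. The monoiPSC libraries were nearly level, and the rise was 4.14-fold (log2 fold change 2.05, SE 0.16, adjusted p = 6.4e-05).

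**Figure D4:**
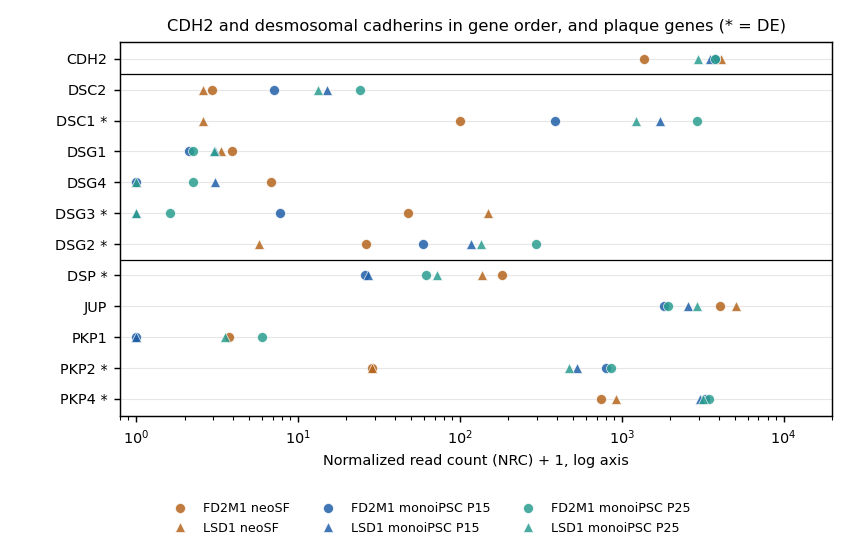
Each point is 1 library, with the NRC + 1 on a log x axis; the top row is CDH2, the middle rows are the desmosomal cadherins in their order along chromosome 3, and the lower rows are the plaque genes and PKP4, with circles for FD2M1, triangles for LSD1, brown for neoSFs, blue for passage 15 and green for passage 25, and a star for a DE gene. Between neighbours, DSC1 and DSG2 lie to the right in monoiPSCs and DSG3 to the left, and PKP2 and DSP move in opposite directions.

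Of the 15 connexins, 5 were tested, GJA5 rose, GJA1 and GJA3 fell and GJC1 was not called. GJA3 passed the filter only through the neoSFs, which partly fixed its direction. GJA1 (gene 100023769, chromosome 2), connexin 43, the main connexin of fibroblasts, was 11000 in the FD2M1 and 12350 in the LSD1 neoSFs. The FD2M1 line had 1248 and 1159 at passages 15 and 25 and the LSD1 line 827 and 1231. Both neoSF libraries were far above all monoiPSC libraries. GJA1 fell 9.79-fold (log2 fold change -3.29, SE 0.19, adjusted p = 2.38e-05) and was still at 827 or more in each monoiPSC library.

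GJA5 (gene 100012487, chromosome 2), connexin 40, known from arterial endothelium and atrium, was 92.6 and 60.5 in the FD2M1 and LSD1 neoSFs. It was 149 and 188 in the FD2M1 line at passages 15 and 25 and 852 and 588 in the LSD1 line. Both lines were above the neoSFs, and the LSD1 line stood well above the FD2M1 line at both passages. The log2 fold change was 2.65 (SE 0.82, adjusted p = 0.0248), but the call was lost without the FD2M1 neoSFs (adjusted p = 0.0726) and without the LSD1 neoSFs (adjusted p = 0.12).

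GJC1 (gene 100020179, chromosome 2), connexin 45, known from the early heart and smooth muscle, was 2094 and 2539 in the FD2M1 and LSD1 neoSFs, 4406 and 3917 in the FD2M1 line at passages 15 and 25 and 3747 and 2864 in the LSD1 line. The groups did not overlap, but the rise was under 2-fold (log2 fold change 0.78, SE 0.21, adjusted p = 0.013). GJA3, a lens connexin, was low throughout, at 22.4 and 26.9 in neoSFs and 2.52 to 6.42 in monoiPSCs, and fell with a log2 fold change of -2.22 (SE 0.53, adjusted p = 0.00802), a call lost without the LSD1 neoSFs (-2.11, adjusted p = 0.0623).

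The beta connexins, known from epithelia and skin, were too low to test or at the floor. GJB2 (gene 100023368, chromosome 4), connexin 26, was 7.80 and 3.17 in the FD2M1 and LSD1 neoSFs, 18.0 and 31.7 in the FD2M1 line at passages 15 and 25 and 29.1 and 28.5 in the LSD1 line. All 4 monoiPSC libraries were above both neoSFs, and without the filter on low levels GJB2 was called higher (log2 fold change 2.39, adjusted p = 0.0168). GJB6 had no count in neoSFs, 0 and 5.02 in the FD2M1 line at passages 15 and 25 and 3.15 and 0 in the LSD1 line. GJB1 and GJB7 were at 13.2 to 36.0 and 16.3 to 23.7 in monoiPSCs and at most 10.8 in neoSFs, again with the monoiPSCs above both neoSFs but below the filter.

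**Figure D5:**
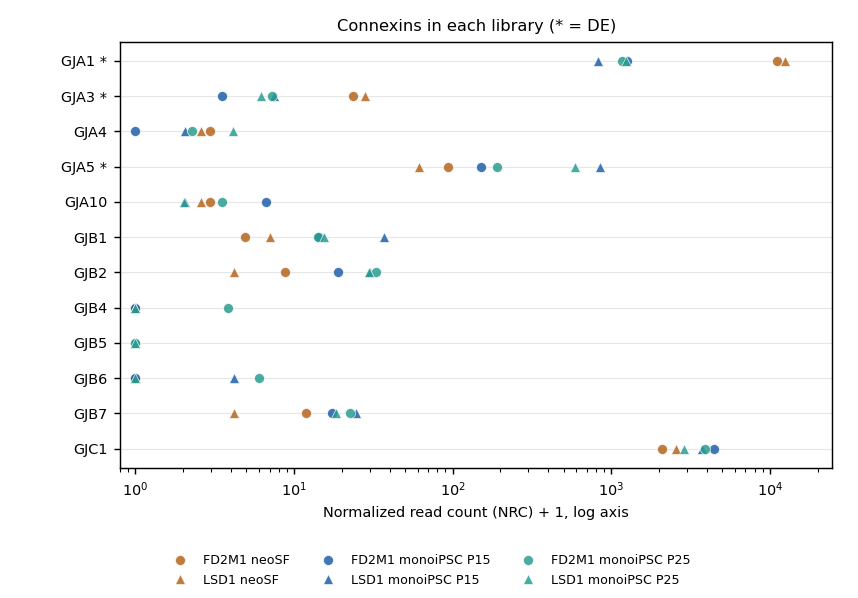
Each point is 1 library, with the NRC + 1 on a log x axis and 12 of the connexins in rows; circles are FD2M1, triangles LSD1, brown neoSFs, blue monoiPSCs at passage 15 and green at passage 25, and a star marks a DE gene. GJA1 drops from 11000 or more to 1248 or less, GJA5 splits by line, and the beta connexins stay at 36.0 or less.

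Many junction genes lie side by side in the genome, in an order taken from the newer mMonDom1.pri annotation, and neighbours did not always share a direction. With no other coding gene between them, CDH3 and CDH1 both rose, as did CDH19 and CDH7, and CLDN9 and CLDN6. CDH11 fell beside CDH5, which was at the floor in both groups. In the unbroken run DSC2, DSC1, DSG1, DSG4, DSG3 and DSG2, with CDH2 1 coding gene away, DSC1 and DSG2 rose, DSG3 fell between them, and the rest were too low to test. GJA3 fell next to GJB2, which was too low to test. CDH1, CDH7, CDH19, CLDN9, DSC1 and DSG2 passed the filter only through the monoiPSCs, and DSG3 and GJA3 only through the neoSFs. This partly fixed their directions. How often neighbours share a direction over all genes was not counted. CDH10, DSC2 and CLDN6 carry other symbols in that annotation. The authors removed alignments of low mapping quality and the non-primary alignments of multiply mapped reads, and how this divided reads between similar neighbours is not known here, so values of the closely related CLDN6 and CLDN9 and of the desmosomal cadherins are uncertain to that extent.

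Within the monoiPSCs, no junction gene was called by passage or by line in edgeR's quasi-likelihood test, over 34 tested junction genes. The background was 0.0% of 12252 genes for passage and 0.0% for line. At an unadjusted p under 0.05, 7 junction genes differed by passage (9.35% of all genes did) and 10 by line (14.2% of all genes did). DESeq2 called 2 by passage (CDH6 and CLDN10, background 0.922%) and 3 by line (GJA5, CDH6 and CDH7, background 1.55%). CDH6 was lower at passage 25 in both lines, from 4230 to 1857 in FD2M1 and from 2109 to 643 in LSD1, with an edgeR log2 fold change of -1.46 (SE 0.19, adjusted p = 0.139). It was also lower in the LSD1 line at both passages (-1.26, SE 0.19, adjusted p = 0.133). CLDN10 was higher at passage 25, from 26.6 to 125 in FD2M1 and from 27.4 to 117 in LSD1 (log2 fold change 2.15, SE 0.37, adjusted p = 0.193). GJA5 was 2.08 higher in the LSD1 line on the log2 scale (SE 0.28, adjusted p = 0.133) and CDH7 was lower there (-1.23, SE 0.24, adjusted p = 0.159). Each strain gave 1 line, so strain and line cannot be told apart.

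Junction genes outside the symbol rule were counted from lists of known partners. As the shares to set beside the counts of each list, 24.3% of all tested genes rose and 21.6% fell. Of all genes that passed in both groups, 18.8% rose and 19.7% fell. Of 20 listed tight junction and polarity partners found, 19 were tested, 13 rose and JAM2 fell, and 5 of those that rose (MARVELD2, MARVELD3, CGN, PATJ and CRB2) passed the filter only through the monoiPSCs, which partly fixed their direction. JAM2 passed the filter only through the neoSFs. Among the 12 partners that passed in both groups 8 rose, with a median log2 fold change of 1.25 against 0.02 over all genes that passed in both. Those that rose include F11R, the junctional adhesion molecule A, from 96.1 and 101 to 942 or more, the coxsackievirus and adenovirus receptor CXADR, from 111 and 336 to 4027 or more, the cytoplasmic plaque protein CGN, from 1.95 and 20.1 to 193 or more, and the Crumbs polarity protein CRB2, from 11.7 and 25.1 to 952 or more. PATJ, the Crumbs-complex scaffold, had at most 3.96 in neoSFs and 239 to 343 in monoiPSCs.

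Of 13 adherens junction partners found, 11 were tested, 6 fell and CTNND2 rose. CTNND2 passed the filter only through the monoiPSCs and NECTIN4 only through the neoSFs. Among the 9 that passed in both groups 5 fell, and the median over these 9 was -1.02 on the log2 scale. The 6 were VCL (log2 fold change -3.07, SE 0.15), the actin linker vinculin, and AFDN, AJUBA, CTNND1, NECTIN1 and NECTIN4. CTNND1, p120 catenin, which binds the tails of CDH1 and CDH2, fell by 1.02 on the log2 scale (SE 0.21, adjusted p = 0.00387). Beta-catenin and alpha-catenin were not called, with CTNNB1 at 11400 to 14850 in neoSFs and 15550 to 22060 in monoiPSCs and CTNNA1 at 8090 to 9964 and 9493 to 10170. Of 4 desmosome and keratin partners, KRT18 and EVPL fell and the other 2 were not called. EVPL passed the filter only through the neoSFs. KRT18, a simple epithelial keratin, differed widely between the neoSFs, at 2466 in FD2M1 and 19020 in LSD1, against 514.5 to 1595 in monoiPSCs.

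Of 12 further cadherin superfamily genes, 11 were tested, the planar polarity genes CELSR1, CELSR2 and CELSR3 and CLSTN3 rose, and FAT1, FAT2 and FAT4 fell. Among the 8 that passed in both groups 3 rose and 2 fell. CELSR2 passed the filter only through the monoiPSCs and FAT2 only through the neoSFs, which partly fixed their directions. CELSR2 went from 9.43 and 3.96 to 4549 or more, and FAT1 from 46760 and 23260 to 3557 or less. Among 3 tested other gap junction genes, GJD2, a neuronal connexin, rose and PANX2 fell, and GJD2 passed the filter only through the monoiPSCs. CDH12, which the files carry under a LOC number and the RefSeq table names by gene number, was left out by the symbol rule and rose from 0.650 and 3.17 to 47.0 to 94.0 (adjusted p = 0.0011), and CDH18, likewise, was at most 10.8. CDH12 too passed the filter only through the monoiPSCs.

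Transcription factors known to repress CDH1 and other epithelial junction genes fell in 3 of 6 cases, and in 2 of the 5 that passed in both groups. Over all genes, 21.6% of those tested and 19.7% of those that passed in both groups fell. The difference from these shares was not tested. SNAI2 went from 10540 and 7702 to 281 to 464, TWIST2 from 272 and 335 to at most 2.10, and ZEB1 from 2985 and 2199 to 695.5 to 1487, while SNAI1, ZEB2 and TWIST1 were not called. Of 9 listed epithelial activators 4 were tested and GRHL1, OVOL2 and ELF3 rose, all from the floor in neoSFs. These 3 were tested only because of their monoiPSC level, so the filter fixed their direction, and KLF5, the 1 that passed in both groups, was not called (log2 fold change -0.83, SE 0.44, adjusted p = 0.138). ELF3 reached 116 and 300.1 in the FD2M1 line at passages 15 and 25 and 224.5 and 479 in the LSD1 line. Fibroblast markers fell beside CDH11, CDH13 and GJA1, with 6 of 7 lower and FBLN1 higher and a summed NRC of 1456000 to 1638000 in neoSFs against 9445 to 11520 in monoiPSCs, and all 6 pluripotency markers found rose beside CDH1 and EPCAM, with a summed NRC of 38.7 to 80.4 in neoSFs and 7556 to 10740 in monoiPSCs, although all 6 passed the filter only through the monoiPSCs. The part of these cell types in the junction gene values was not tested.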

How the data were processed

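RNA of 2 neoSF and 4 monoiPSC libraries was sequenced. The authors aligned reads to MonDom5 and RefSeq transcripts with StrandNGS, dropped reads of low base or mapping quality and non-primary alignments of multiply mapped reads, and counted the rest per gene. The deposited raw counts are estimated counts, since 87.1% of values above 0 are fractional, and were rounded for testing. A second deposited table holds log2 values that the authors normalized with DESeq, a tool the submitters' processing notes name too. These equal the log2 of the count times 1 factor per library, and NRC is the count times this factor. How read pairs were counted is not given in the sources used here.

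Genes were tested with edgeR 4.0.16 (R 4.3.3, glmQLFit and glmQLFTest, TMM scaling) on all tested genes together, and DESeq2 1.42.0 and limma 3.58.1 served as alternatives. Standard errors are the log2 fold change divided by the square root of F. Passage was tested with line, and line with passage, as a covariate. Ratios of genes with few neoSF counts use counts pooled over libraries with exact 95% intervals, and a count of 0 was set to the floor of 3. On simulated counts of 13072 genes with 200 changed 4-fold, edgeR recovered 161 and called 5 others. On 12252 genes, the passage test recovered 141 of 195 and called 15 others. These simulated counts held no difference between lines and took their spread from the fit of monoiPSCs against neoSFs. They therefore do not show what the passage or line test could find in the real libraries.

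Pairing comes from the strain, since each line derives from the neoSFs of its strain, and strain was used as a block in an alternative. The junction genes, types and lists were chosen with earlier results of these data known. Values in every library are given for DE junction genes whose mean NRC reached 100 in the group where it was higher, 21 genes, and for a list of 33 landmark genes, of which CRB3, DSC3 and PKP3 were not found. Symbols were compared with the mMonDom1.pri RefSeq table, where 71 of 73 matched by gene number, and no coordinates are given because it is another assembly. Identifiers and chromosomes are those of the files. A few genes counted among the totals are not reported here by name, and were left out of the figures and of the alternatives for single genes.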

Additional observations from a re-analysis of the deposited data

Results flagged for a closer look

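In 3 of 37 junction genes the monoiPSCs of the strains moved in opposite directions against their own neoSFs at both passages, a difference that was not tested. On the scale of log2(NRC + 1), CLDN11 differed by -2.85 in FD2M1 and 0.61 in LSD1. CLDN23 differed by -0.95 in FD2M1 and 0.45 in LSD1. CDH2 differed by 1.46 in FD2M1 and -0.35 in LSD1. Each strain has 1 neoSF library, so each of these pairs of values rests on it.

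In 1 of the 37 genes, a monoiPSC library stood apart from the others of its group on the scale of log2(NRC + 1). CLDN9 had an NRC of 46.0 in the FD2M1 line at passage 15. On that log2 scale its gap to the next library was 0.935 of the whole range of the group, above Dixon's 95% critical value for 4 libraries. The flag holds for that scale only, and unlogged NRC can mark other genes. Chance marks about 1 in 20 such groups.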

How the results depend on the processing

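The number of junction genes that rose was 16 to 25 and the number that fell 5 to 8 under the alternatives: RLE scaling, DESeq2, limma on the log2 values, no filter on low levels (65 junction genes tested), strain as a block, summed passages, thinning to the shallowest library, leaving out each library, a single passage, no fold threshold and an adjusted p of at most 0.01. With strain as a replicate block they stayed at 20 and 6, the same genes. RLE scaling moved the median log2 fold change of all genes by -0.05 and limma by -0.10. Of 555 values of 37 single junction genes, 530 kept their direction and call, 10 lost the call, 5 gained it and 10 turned. Of the 26 called genes, 18 kept the call throughout. DESeq2 called 2 junction genes by passage and 3 by line. With passage 25 alone, CDH6 turned to -0.24, CDH8 to 0.12 and CLDN23 to 0.10, and CLDN23 was 0.08 after thinning. Leaving out single libraries gave -0.14 to 1.46 for CDH2, -2.91 to 1.18 for CLDN11, -0.34 to 0.17 for CLDN23 and -0.20 to 0.01 for TJP1. The cause of these turns was not tested. Where 1 neoSF library was left, it was assumed to vary like the monoiPSCs. In neoSFs, depth limits levels under an NRC of about 5.85, the weight of 3 counts.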
